A study of Mus musculus with 6 samples.

Results

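Transcripts of 7 genes of the testis pathway, Sox9, Sox8, Dmrt1, Amh, Fgf9, Ptgds and Aard, were examined in RNA from fetal mouse ovaries. The genes were chosen by name, and the counts of all transcripts with that gene name were summed in each pool. They comprised 7 of 35974 gene names and 12 of 114412 transcripts in the deposited matrix. The question was which of these testis-associated genes were measurable in the ovary, through which isoforms, and whether exposure to panobinostat (PB), an inhibitor of histone deacetylases, moved them.

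Strand-specific libraries of polyA RNA were made from ovaries of C57BL/6J embryos at E15.5, with 3 control pools and 3 PB pools. In the PB group, the pregnant mice received PB from E6.5 to E15.5, and the controls received DMSO and water alone. The sample annotation gives 5 mg/kg each day, whereas the study's methods give this dose every other day. The annotation gives 4 ovaries per pool for RNA extraction, the series design gives 6 to 8, and the RNA-seq methods give 8 or more. A pool mixes every cell type of the organ. In such bulk samples, fewer cells of a type and less RNA per cell cannot be told apart. The study calls the pools biological replicates and used separate litters in most experiments, without naming the litters of these pools. The series design ties each library of a group to a mouse of its own number, and calls the mouse exposed for the controls too, whereas the treatment label of those libraries reads control, which was followed here. The p-values measure the spread between these pools. The counts summed to between 97165644 and 125985399 per pool, and 3 counts, taken as the floor of detection, corresponded to 0.0257 to 0.0319 CPM, counts scaled to the depth of a pool.

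In the fetal testis, SRY switches on SOX9 in the supporting cells, which become Sertoli cells, and SOX8, FGF9 and prostaglandin D2 made by PTGDS help to keep SOX9 on. Sertoli cells then secrete AMH, the hormone that removes the Müllerian ducts, and DMRT1 holds the male fate of these cells after birth. In the fetal ovary the supporting cells become pregranulosa cells, marked by FOXL2 and WNT4, and DMRT1 is also known from fetal germ cells of both sexes. AARD, an alanine- and arginine-rich protein, is enriched in the fetal testis.

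The members were read from 12 transcripts, all of which matched the intron chain of a RefSeq transcript. Sox9, Sox8 and Aard each had 1 transcript, Dmrt1, Amh and Fgf9 had 2 each, and Ptgds had 3. No transcript of another gene name overlapped any of the 7 loci. The following 30-base stretches are shown because they tell apart the isoforms described here. The last 15 bases of the left exon are in lower case and the next 15 bases of the transcript are in capitals, 5′ to 3′ on the plus strand, as read from GENCODE M21 transcripts on GRCm38, the assembly of the deposited mm10 files.
Dmrt1 NM_015826.5, exon 4 joined to exon 5: aagccaaagccagtgTGTTCTCGCCCCCCA
Dmrt1 XM_011247280.1, exon 4 read past that junction: aagccaaagccagtgGTAAGTTCTTTCTGT
Amh NM_007445.2, exon 3 joined to exon 4: aaccaagcagagaagGTGCCACCCTGAGCA
Fgf9 NM_013518.4, exon 1 joined to exon 2: accacagccgcttcgGCATTCTGGAATTTA

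All 7 genes exceeded 3 counts in all 6 pools. The lowest count of any of them in a pool was 66, for Amh in PB 2. Levels were compared between genes per length, as TPM, in which the count of each transcript is divided by its exon length and scaled to a common total. Over the 6 pools Aard was the highest at 31.4 ± 2.54 TPM (SD, n = 6), and Dmrt1 followed at 8.32 ± 2.31 TPM. Sox9 stood at 4.45 ± 0.671 TPM, Ptgds at 4.01 ± 0.942 TPM and Sox8 at 3.18 ± 0.441 TPM. Fgf9 reached 1.70 ± 0.346 TPM and Amh was the lowest at 0.841 ± 0.242 TPM.

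The order was partly resolved. Aard exceeded Dmrt1, Dmrt1 exceeded Sox9, Sox8 exceeded Fgf9, and Fgf9 exceeded Amh in 6 of 6 pools, with no overlap between the ranges. Sox9 exceeded Ptgds in only 4 of 6 pools and Ptgds exceeded Sox8 in 5 of 6 pools, and the members of each of these pairs did not differ beyond their spread. Sox9 exceeded Sox8 in 6 of 6 pools, although their ranges overlapped. Among the 26610 genes with a count, whose median level was 1.73 TPM, Aard lay at the 85.0th percentile, Dmrt1 at the 64.3rd, Fgf9 at the 49.9th and Amh at the 45.1st. Restricting the scaling to known RefSeq transcripts raised all 7 levels, for example of Sox9 from 4.45 to 7.55 TPM and of Amh from 0.841 to 1.41 TPM, since assembled transcripts then left the total.

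**Figure D1:**
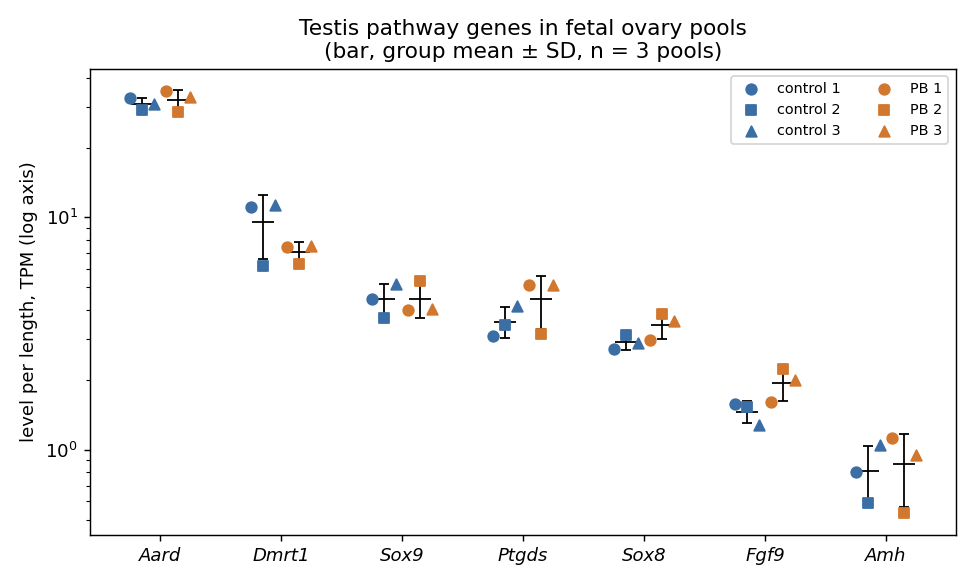
Level of each gene in TPM on a log axis, with 1 point per pool (blue, control; orange, PB) and the mean ± SD of each group of 3 pools. Aard lies between 28.4 and 34.9 TPM in every pool and Amh between 0.531 and 1.12 TPM. The points of control and PB overlap for 6 of the 7 genes in TPM, all but Fgf9. The share of all genes without overlap was taken in CPM only, where it is 10.7% and all 7 genes overlap.

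None of the 7 genes was called between PB and control in edgeR's quasi-likelihood test on gene sums, or in DESeq2's Wald test. A call required a 2-fold difference or more together with an FDR (Benjamini-Hochberg) no higher than 0.05. At this threshold 3 of 19435 genes were called, or 0.0154%. At an unadjusted p under 0.05, 1 of the 7 genes passed in either test, Dmrt1, against 4.46% of all genes tested with edgeR. On the CPM scale the groups overlapped for all 7 genes, whereas for 10.7% of all genes tested no pool of one group lay within the other. The median log2 fold change of the 7 genes was -0.0083, beside 0.0020 for all genes tested.

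**Figure D2:**
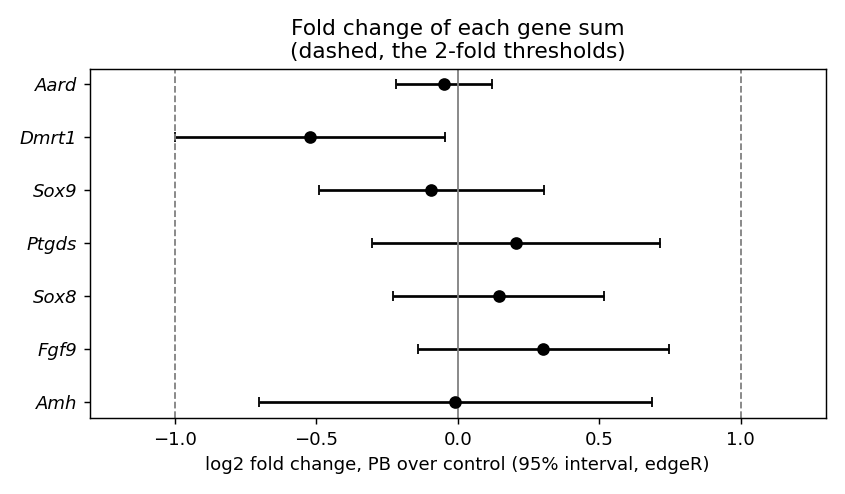
Log2 fold change of PB over control for each gene sum with its 95% interval from edgeR, with 3 pools in each group and dashed lines at the 2-fold thresholds. The interval of Dmrt1 runs from -1.0 to -0.046, and the other 6 intervals include 0.

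Sox9, the transcription factor that directs Sertoli differentiation, lies at chr11:112782210-112787757 on the plus strand and was read from NM_011448.4, with 3 exons and 4146 bases. It had 12.5, 11.2 and 14.1 CPM in control 1, 2 and 3 and 10.3, 14.7 and 10.4 CPM in PB 1, 2 and 3. On this scale the highest and the lowest pool were both PB pools, whereas in TPM the lowest was control 2, at 3.70 TPM. The log2 fold change of Sox9 was -0.09 (95% interval -0.49 to 0.30, edgeR FDR = 0.929), so a change of 2-fold in either direction lay outside the interval. Without PB 2 the difference was -0.28 (unadjusted p = 0.0468, FDR = 0.396 in edgeR). The 5 mesonephros genes are markers of the adjoining duct tissue in which SOX9 is also known. They summed to 33.4 CPM in control 3, the control pool with the most Sox9, and to between 14.5 and 21.1 CPM in the other 5 pools. PB 2, the pool with the most Sox9 of all, was at 21.1 CPM. Cdh16 alone held 14.8 CPM in control 3, against 1.90 to 3.87 CPM elsewhere. The part of the mesonephros genes in the Sox9 level was not tested.

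Sox8, the SOXE relative that acts beside SOX9 in Sertoli cells, lies at chr17:25565893-25570686 on the minus strand and was read from NM_011447.3, with 3 exons and 2999 bases. Its gene sum was 5.50, 6.79 and 5.64 CPM in control 1 to 3 and 5.48, 7.68 and 6.67 CPM in PB 1 to 3. PB 2 held the highest value. PB 1 held the lowest in CPM, just below control 1, whereas in TPM the lowest was control 1, at 2.71 against 2.95 in PB 1. For Sox8 the log2 fold change was 0.15 (95% interval -0.23 to 0.52, edgeR FDR = 0.894). With 1 pool left out it ranged from 0.022 without PB 2 to 0.26 without PB 1.

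The start of Sox8 faces that of 2810468N07Rik, a transcript on the plus strand, across 124 bases. This interval is shown because both transcripts begin at its ends. It is written 5′ to 3′ on the strand of Sox8, as in the RefSeq promoter table on GRCm38, at chr17:25570687-25570810, with the GC box GGGCGG in capitals.
2810468N07Rik end to Sox8 end: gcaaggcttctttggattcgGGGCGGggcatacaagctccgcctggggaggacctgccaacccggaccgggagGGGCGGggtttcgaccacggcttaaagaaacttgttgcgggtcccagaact
The GC box was searched as GGGCGG on both strands, and 2 matches fell in the interval. The 300-base promoter window of Sox8 also held 2, and 35.7% of the 32851 promoters in the table held at least 1 while 19.5% held at least as many as Sox8. A match describes the letters and not a bound factor. 2810468N07Rik had 4.18, 4.35 and 4.87 CPM in control and 4.73, 4.27 and 4.90 CPM in PB, with a log2 fold change of 0.05 (edgeR FDR = 0.941). The TPM ratio of Sox8 to 2810468N07Rik ranged from 0.520 to 0.810 over the 6 pools, so the pair did not keep a fixed ratio.

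Dmrt1, a DM-domain transcription factor, lies at chr19:25505618-25604328 on the plus strand. Its gene sum was 16.9, 10.1 and 16.6 CPM in control 1, 2 and 3 and 10.3, 9.41 and 10.5 CPM in PB 1, 2 and 3. Control 1 and control 3 stood above the other 4 pools, and control 2 lay among the PB pools. In TPM control 2 was the lowest, at 6.17 against 6.31 in PB 2. The log2 fold change of Dmrt1 was -0.52 (SE 0.20, 95% interval -1.0 to -0.046, unadjusted p = 0.036, FDR = 0.888 in edgeR), which did not pass the test. Without control 2 it was -0.73 (unadjusted p = 0.00024, FDR = 0.182 in edgeR), and leaving out any other single pool brought the unadjusted p to between 0.0656 and 0.113.

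Of 76 genes in the other lists, those whose centred log2 CPM followed Dmrt1 most closely over the 6 pools were Pou5f1, a pluripotency factor of early germ cells, with a root mean square difference of 0.060, and Dppa3, a germ cell factor, with 0.067. Fgfr3 came next at 0.220, and Dmrt1 itself varied by 0.348 about its own mean. Pou5f1 had 30.6, 18.3 and 30.7 CPM in control and 17.0, 17.6 and 18.6 CPM in PB. Its log2 fold change was -0.58 (unadjusted p = 0.024, FDR = 0.888 in edgeR). Dppa3 had 20.1, 11.9 and 21.6 CPM in control and 12.2, 12.5 and 12.8 CPM in PB, with a log2 fold change of -0.52 (unadjusted p = 0.048, FDR = 0.888 in edgeR). In all 3 genes control 1 and control 3 were high and the other 4 pools low. This was not shared by the germ cell list as a whole. Of its 12 genes, 7 had a negative and 5 a positive log2 fold change, from -0.58 for Pou5f1 to 0.34 for the synaptonemal complex gene Sycp3, and 0 were called. Sycp3 was highest in PB 3 and PB 1, at 183.5 and 171.9 CPM, and lowest in PB 2, at 81.2 CPM, with 111.3 to 118.0 CPM in control. Pou5f1 and Dppa3 were picked for following Dmrt1 in these same pools, so their like fold changes and steady ratios follow from that choice. The TPM ratio of Dmrt1 to Pou5f1 lay between 0.322 and 0.366 and that of Dmrt1 to Dppa3 between 0.275 and 0.309. That of Dmrt1 to Ddx4, the general germ cell RNA helicase, ranged from 0.0998 to 0.176. The part of germ cells in the Dmrt1 level was not tested. Near-identical copies of Pou5f1 and Dppa3 exist in the mouse genome, which makes the division of their reads uncertain.

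**Figure D3:**
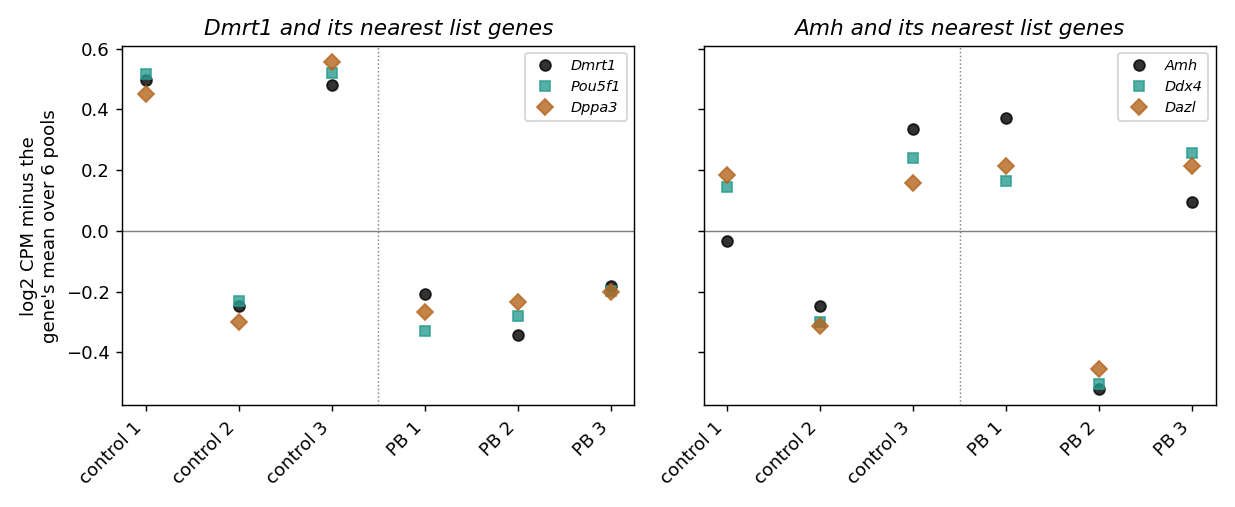
Log2 CPM of each gene minus its mean over the 6 pools, for Dmrt1 with Pou5f1 and Dppa3 (left) and for Amh with Ddx4 and Dazl (right); each point is 1 pool and the dotted line divides control from PB. The Dmrt1 group is high in control 1 and control 3 only, and the Amh group is lowest in PB 2, followed by control 2.

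Nearly all Dmrt1 counts fell on NM_015826.5, the full-length form with 5 exons and 2251 bases, which had 1644, 1163 and 1546 counts in control and 1013, 951 and 1210 in PB. Its share was 99.0% ± 0.313 in control and 98.8% ± 0.0628 in PB (SD, n = 3 each), and the exact permutation test over the pools gave a two-sided p of 0.4 (adjusted p = 1.0 over 5 shares). The other form, XM_011247280.1, ends after 4 exons, running 487 bases past the exon 4 junction into an intron of 43175 bases. It had between 11 and 21 counts in every pool, above the floor of 3 counts. With 3 pools against 3, this permutation test cannot give a p below 0.1.

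Amh, the Müllerian-inhibiting hormone, lies at chr10:80805028-80807679 on the plus strand. Its gene sum was 89, 91 and 110 counts in control and 119, 66 and 115 counts in PB, or 0.906, 0.781 and 1.17 CPM and 1.2, 0.646 and 0.989 CPM. PB held both the highest and the lowest pool. The log2 fold change of Amh was -0.0083 (95% interval -0.70 to 0.69, edgeR FDR = 0.998). Its sign turned with control 3 or PB 2 left out.

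The list genes closest to Amh over the pools were the germ cell genes Ddx4, with a root mean square difference of 0.135 in log2 CPM, and Dazl, with 0.142. Ddx4 had 121.9, 89.7 and 130.3 CPM in control and 123.7, 77.7 and 131.9 CPM in PB. Like Amh, it was lowest in PB 2 and next lowest in control 2, a likeness by which it was picked. The 12 germ cell genes summed to 813 CPM in control 2 and 686 CPM in PB 2, below the 1031 to 1219 CPM of the other 4 pools, and the part of this in the Amh level was not tested.

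Of the 4 genes with more than 1 isoform, Amh had the widest range of shares over the pools, followed by Ptgds. NM_007445.2 held 98.9%, 40.7% and 83.6% of the Amh counts in control 1, 2 and 3. In PB 1, 2 and 3 it held 73.1%, 37.9% and 97.4%. The rest fell on XM_006513119.3, which starts 220 bases further upstream, begins exon 4 24 bases earlier and ends 31 bases later. The Wilson 95% interval of the NM_007445.2 share was 27.1% to 49.9% in PB 2 and 92.6% to 99.1% in PB 3. These intervals treat every count as a read that identifies its form, whereas the 2 forms share most of their sequence. They may thus be too narrow, and whether the spread exceeded counting error cannot be told from them. The mean share was 74.4% ± 30.2 in control and 69.5% ± 29.9 in PB (SD, n = 3 each; two-sided exact permutation p = 0.7, adjusted p = 1.0). The difference of -4.93 percentage points and its sign rested on single pools, as it was -21.8 without control 2, 7.31 without control 1 and 10.9 without PB 2. StringTie divides the coverage of a locus between such overlapping forms, and how the reads were divided was not examined. The last exon of Sf3a2, a splicing factor gene on the same strand, ends 103 bases before the start of XM_006513119.3. Sf3a2 had 42.7, 38.4 and 48.6 TPM in control 1 to 3 and 39.1, 48.4 and 53.2 TPM in PB 1 to 3. XM_006513119.3 held 1.12%, 59.3% and 16.4% of the Amh counts in these control pools. In the PB pools it held 26.9%, 62.1% and 2.61%. Whether the Sf3a2 level and this share were related was not tested.

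**Figure D4:**
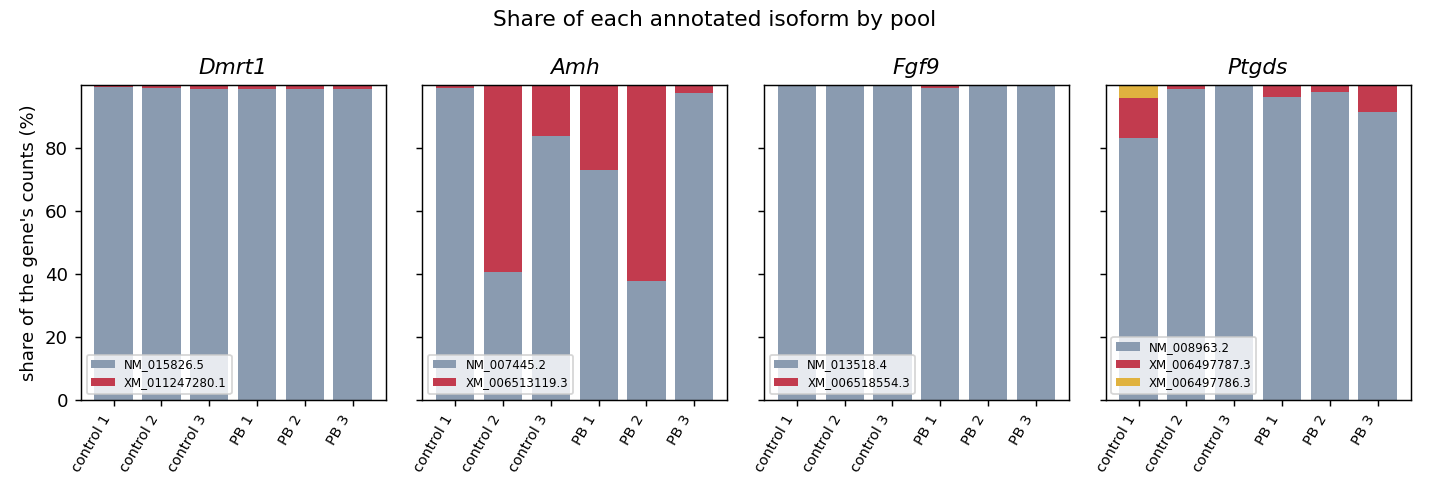
Share of the counts of each gene on each of its annotated isoforms, in percent, for the 4 genes with more than 1 isoform, with 1 bar per pool. The shares of Amh range from 37.9% to 98.9% for NM_007445.2, whereas Dmrt1 and Fgf9 stay above 98% on 1 form in every pool.

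Fgf9, a secreted growth factor that supports Sox9 in the testis, lies at chr14:58072686-58112854 on the plus strand. Its gene sum was 4.40, 4.60 and 3.46 CPM in control 1, 2 and 3 and 4.09, 6.12 and 5.16 CPM in PB 1, 2 and 3. PB 2 and PB 3 stood above all controls, and PB 1 lay within them. On the TPM scale PB 1, at 1.60 TPM, lay just above the highest control at 1.57 TPM, so whether the groups overlapped depended on the scaling. The log2 fold change of Fgf9 was 0.30 (95% interval -0.14 to 0.75, unadjusted p = 0.149, FDR = 0.888 in edgeR). It was 0.44 without PB 1 (unadjusted p = 0.0486, FDR = 0.985) and 0.16 without PB 2. NM_013518.4 held between 99.0% and 99.8% of the Fgf9 counts. XM_006518554.3, whose first exon starts 2810 bases downstream, had between 1 and 4 counts.

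Ptgds, the prostaglandin D2 synthase, lies at chr2:25466709-25470110 on the minus strand. Its gene sum was 1.70, 2.02 and 2.19 CPM in control and 2.55, 1.68 and 2.59 CPM in PB. PB 1 and PB 3 were the 2 highest pools. PB 2 was the lowest in CPM, just below control 1, whereas in TPM control 1 was the lowest, at 3.08 against 3.14 in PB 2. Ptgds had a log2 fold change of 0.21 (95% interval -0.30 to 0.72, edgeR FDR = 0.893), and with 1 pool left out it ranged from 0.10 without PB 3 to 0.38 without PB 2. NM_008963.2, with 7 exons, held between 83.2% and 100% of the Ptgds counts. The forms with 8 exons start 361 bases upstream. The counts of XM_006497787.3 were 21, 3 and 0 in the controls and 10, 4 and 26 under PB. XM_006497786.3 had 7 counts in control 1 and 0 in the other 5 pools.

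Aard lies at chr15:52040107-52045722 on the plus strand and was read from NM_175503.3, with 2 exons and 1348 bases. It had 29.7, 28.3 and 27.1 CPM in control and 29.1, 25.5 and 27.7 CPM in PB. It was the most even of the 7 genes, with a coefficient of variation of 4.64% in control and 6.58% in PB. For Aard the log2 fold change was -0.05 (95% interval -0.22 to 0.12, edgeR FDR = 0.912). The list gene closest to it over the pools was Bmp2, a pregranulosa gene, with a root mean square difference of 0.037 in log2 CPM.

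For the other members, the nearest list genes were less close relative to their own spread. Sox9 was closest to Pax8, a mesonephros gene, with a root mean square difference of 0.110 beside its own 0.203. The values were 0.147 and 0.184 for Sox8 with the prostaglandin synthase gene Ptgs1, 0.195 and 0.256 for Fgf9 with the steroid enzyme gene Cyp17a1, and 0.188 and 0.246 for Ptgds with the meiotic gene Hormad1.

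At the level of single transcripts, 10 of the 12 passed the filter on low counts. Of these 10, 0 were called and 0 had an unadjusted p under 0.05 in edgeR or in DESeq2. The 95% edgeR interval of the log2 fold change ran from -3.50 to 3.84 for XM_006513119.3 and from -3.29 to 4.51 for XM_006497787.3. Those of NM_007445.2, NM_008963.2, NM_015826.5 and XM_011247280.1 also reached past 2-fold, so for these forms such a change was not excluded. The intervals of NM_011448.4, NM_011447.3, NM_175503.3 and NM_013518.4 stayed within 2-fold. Over all 51227 transcripts tested, 0.0332% were called and 3.56% had an unadjusted p under 0.05. The 2 transcripts that were filtered out were XM_006518554.3 of Fgf9 and XM_006497786.3 of Ptgds.

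Other genes of the pathway placed these levels in the tissue. Of 18 further Sertoli genes, 13 exceeded 3 counts in every pool and Sry was at 0 in all 6, which allows up to 3 counts in a pool. The list had a median of 1.69 TPM, against 4.01 TPM for the 7 genes. Its highest genes were Gatm, an enzyme of creatine synthesis, at 80.2 ± 8.01 TPM, Cst8, a cystatin, at 52.4 ± 7.0 TPM and Serpine2, a protease inhibitor, at 32.5 ± 2.63 TPM (SD, n = 6). Of its 13 genes tested, 0 were called and 0 had an unadjusted p under 0.05 in edgeR or in DESeq2.

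The upstream factors, which build the gonad of both sexes before Sry acts, were higher, with a median of 33.6 TPM. Wt1 reached 141.5 ± 11.6 TPM, Gata4 137.1 ± 11.2 TPM and Emx2 101.3 ± 6.77 TPM (SD, n = 6). Of the 12 genes, 9 had a positive and 3 a negative log2 fold change, and 0 were called or had an unadjusted p under 0.05 in edgeR or in DESeq2.

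The receptors of AMH and FGF9 exceeded their ligands in level per length. Amhr2, the receptor of AMH, was at 143.2 ± 8.13 TPM, between 134.9 and 250.4 times the level of Amh in the same pool. Fgfr2, a receptor of FGF9, was at 44.3 ± 3.9 TPM, between 19.5 and 35.0 times the level of Fgf9, and Fgfr1 was at 30.9 ± 2.47 TPM. The other FGF receptor genes of the list were much closer to Fgf9, with Fgfr3 at 5.34 ± 0.945 TPM and Fgfr4 at 3.25 ± 0.797 TPM. The prostaglandin D2 receptor genes were low, with a mean of 0.0053 TPM for Ptgdr and 0.052 TPM for Ptgdr2. Ptgdr was near the floor, with 4, 0 and 0 counts in control and 0, 0 and 3 in PB. Ptgdr2 had 22, 23 and 0 counts in control and 0, 9 and 6 in PB. Amhr2 had 203.1, 195.6 and 182.6 CPM in control and 182.2, 174.3 and 169.0 CPM in PB. On this scale every PB pool lay below every control pool, and 10.7% of all genes tested showed no overlap. In TPM the groups overlapped, with 154.2, 138.0 and 143.0 in control and 151.3, 133.1 and 139.3 in PB. The log2 fold change of Amhr2 was -0.15 (SE 0.05, unadjusted p = 0.035, FDR = 0.888 in edgeR), which did not pass the test. It was the 1 gene of the 9 tested in this list with an unadjusted p under 0.05, and 0 were called, in edgeR as in DESeq2.

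The labelled tissue held its defining markers. Foxl2, the pregranulosa transcription factor, was at 91.4 ± 8.77 TPM and Wnt4, the ovarian signalling factor, at 88.4 ± 4.35 TPM (SD, n = 6). Foxl2 was between 17.3 and 26.0 times as high as Sox9 in TPM in each pool. Its log2 fold change was -0.0070 and that of Wnt4 was -0.08 (edgeR FDR = 0.994 and 0.888). Of the 12 pregranulosa and 12 germ cell genes, 0 were called in edgeR or in DESeq2. In edgeR 1 of the 12 pregranulosa and 3 of the 12 germ cell genes had an unadjusted p under 0.05. Both shares lie above the 4.46% of all genes tested, which was not tested for these short lists. These were Runx1, a pregranulosa transcription factor (log2 fold change 0.15, unadjusted p = 0.034 in edgeR), and Pou5f1, Dppa3 and Kit. Kit, the receptor of germ cells for KITL, had 55.1, 51.8 and 53.3 CPM in control and 43.2, 46.9 and 41.1 CPM in PB, with every PB pool below every control pool (log2 fold change -0.29, unadjusted p = 0.0032, FDR = 0.888 in edgeR). Y-linked genes, a sign of male tissue, were at or near 0. Over 8 genes they summed to 22, 0 and 25 counts in control 1, 2 and 3 and to 14, 17 and 54 counts in PB 1, 2 and 3. Eif2s3y had 14, 0 and 11 counts in control against 0, 8 and 24 in PB. Ddx3y had 4, 0 and 14 counts in control against 6, 6 and 27 in PB. Kdm5d had 5 counts in PB 1 and 3 in PB 2, Uty had 4 in control 1 and 3 in PB 1, and Usp9y had 3 in PB 3, each with 0 elsewhere. In control 2, where all Y-linked genes were at 0, Sox9 had 1300 counts, Dmrt1 1174, Aard 3300 and Amh 91.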

How the data were processed

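The authors aligned reads to mm10 with HISAT2 2.1.0, assembled transcripts with StringTie 1.3.5 on RefSeq, and deposited raw counts per transcript, which derive from coverage; the submitters' notes also name DESeq2 1.30.0. Gene names came from the deposited table, whose fold changes, p-values and normalized columns hold the authors' own comparison and were not used; exon lengths came from the deposited annotation. Counts were summed by gene name; 1493 transcripts without a name (3.05% to 4.49% of a pool's counts) were left out of gene sums. Gene sums and transcripts were tested with edgeR 4.0.16 (R 4.3.3; TMM, filterByExpr with minimum count 10 and total 15, quasi-likelihood test, Benjamini-Hochberg over all features), and CPM used TMM library sizes. DESeq2 1.42.0 was an alternative. The shares of isoforms holding at least 10% of a gene's counts were compared by exact permutation (scipy). Only the edgeR tests were run on simulated counts, which were drawn from their own fitted model with changes larger than the 2-fold threshold.

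Named were the 7 genes, the pathway genes with an unadjusted p under 0.05 or the 3 highest levels of a list, Foxl2, Wnt4, Ddx4, Y-linked genes with a count, and each member's nearest list gene. Dppa3, Dazl, Sycp3, Kit, Runx1, Fgfr3, Fgfr4, Ptgdr, Ptgdr2, Cdh16, 2810468N07Rik and Sf3a2 were added after their values were seen. The members and lists were chosen with earlier results of these data known. Of the 7 members, 3 had a promoter sequence in the RefSeq table. The lists of Leydig, adrenal and neural crest genes gave 0 called genes each.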

Additional observations from a re-analysis of the deposited data

How the results depend on the processing

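None of the 7 genes and none of their 10 tested transcripts was called under any alternative; the smallest FDR was 0.182, for Dmrt1 without control 2. Of 91 alternative log2 fold changes of gene sums, 88 kept their direction and side of the threshold, as did 98 of 108 of transcripts. With each pool left out in turn, the log2 fold changes whose sign turned ranged from -0.22 (without PB 1) to 0.20 (without PB 2) for Amh and from -0.097 to 0.0021 for Aard. Among transcripts they ranged from -0.42 to 0.34 for NM_007445.2, from -0.40 to 1.31 for XM_006513119.3, from -0.28 to 0.0015 for NM_011448.4, from -0.088 to 0.0070 for NM_175503.3, from -0.19 to 3.08 for XM_006497787.3 and from -0.48 to 0.17 for XM_011247280.1.

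Over all genes, 3 calls became 11 with the DESeq2 Wald test, 8 with known transcripts only, and 3 to 9 with 1 pool left out. Over all transcripts, 17 calls became 1172 with DESeq2, 39 when every pool of 1 group had to hold 10 or more counts, and 0 to 19 with 1 pool left out. The cause was not tested. Isoform shares with no overlap between the groups numbered 0, and 0 to 1 with 1 pool left out (that of Ptgds NM_008963.2 without control 1 and of Dmrt1 NM_015826.5 without control 3). The neighbouring pairs of members ordered alike in every pool numbered 4, and 5 without PB 2.

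The replicate numbers did not pair the pools, with correlations of 0.093, 0.147 and -0.018 between same-numbered pools, and control 1 and control 3 correlated best with another number. With the replicate block, 0 genes and 0 transcripts were called.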
